A study of Mus musculus with 8 samples.

Results

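The 32 genes described here encode proteins of fatty acid uptake, storage-fat breakdown and mitochondrial fatty acid oxidation, and they were taken from a list of gene symbols matched to the Ensembl identifiers of the count table. All 32 were found among 38293 gene identifiers, and all 32 passed the filter on low counts that left 13972 genes for testing. RNA came from left ventricles of C57BL/6J mice 3 days after ischemia-reperfusion injury of the heart (ligation of the left anterior descending coronary artery, then reflow). Every heart received injections into the heart muscle (2 of 10 µl each) of a UPy-PEG hydrogel, a gel of polyethylene glycol chains held together by hydrogen-bonding ureidopyrimidinone groups. In the hydrogel group (n = 4 libraries) the gel carried no drug, and in the antimiR-195 group (n = 4 libraries) it carried an antimiR, an oligonucleotide that binds and blocks a microRNA, against miR-195. Both groups therefore shared the strain, the injury and the gel, and no uninjured, gel-free or control-oligonucleotide hearts were analysed here. The labels give neither the age nor the sex of the mice, do not separate infarcted from surviving muscle, and do not say that each library came from its own animal, so the p-values rest on the spread among the libraries, which may be technical.

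The adult heart draws most of its energy from fatty acids. Lipoprotein lipase frees them from circulating triglyceride, CD36 and fatty acid transport proteins bring them into the cardiomyocyte, and heart-type fatty acid-binding protein carries them through the cytosol. They are then bound to coenzyme A, passed across the mitochondrial membranes as carnitine esters and shortened in the β-oxidation spiral, whose electrons reach the respiratory chain through the electron transfer flavoprotein. Many of these genes are known targets of the nuclear receptor PPARα and of the coactivator PGC-1α, and their mRNA levels are known to be lower in failing and infarcted myocardium.

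The drug acts on a microRNA, so the microRNA and its possible pairing sites in the 3′ UTRs of the 32 genes are shown first. The mature mouse miR-195a-5p maps to chr11:70235062-70235082 on the plus strand (RefSeq, GRCm38.p6). It is printed with its seed, bases 2 to 8, in capitals, and 10 mature mouse microRNAs in the RefSeq table carry that seed.
miR-195a-5p: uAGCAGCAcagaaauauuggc

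A site was counted where the 3′ UTR of the principal transcript (GENCODE M21, GRCm38) held TGCTGCT, which pairs with bases 2 to 8 of the microRNA, or GCTGCTA, which pairs with bases 2 to 7 and ends in A. Of the 32 genes, 9 held at least 1 site (28.1%), beside 3551 of the 12801 tested genes with a 3′ UTR of at least 50 bases (27.7%). The median 3′ UTR of the 32 genes had 564.5 bases, shorter than the 1129 bases over those 12801 genes. The first site is given for 7 of the 9 genes within 30 bases of transcript, 5′ to 3′, with the pairing bases in capitals and their genome position before each. Of these 7 genes, Mlycd held 4 such sites (3 of them overlapping), Acsl1 and Cpt1a held 2 each, and the other 4 held 1.
Acadm (chr3:153922868-153922874, minus strand): ccaagcactgtTGCTGCTtcaggggaaaag
Acsl1 (chr8:46534847-46534853, plus strand): tctgatatgtcTGCTGCTtgctgcgcgttt
Cpt1a (chr19:3384517-3384523, plus strand): atatgtgagggTGCTGCTtcccctcacaag
Hadhb (chr5:30184344-30184350, plus strand): agagactaatgGCTGCTAgccacttggaga
Lipe (chr7:25379712-25379718, minus strand): ccactgccttcTGCTGCTgtgaccgacccg
Mlycd (chr8:119410743-119410749, plus strand): ggatcccactgTGCTGCTcccccacagcct
Ucp3 (chr7:100485190-100485196, plus strand): gaaccctgcacTGCTGCTgacacgagaaac

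No change between the groups was detected for any of the 32 genes. With edgeR's quasi-likelihood test and Benjamini-Hochberg adjustment over all 13972 genes, 0 of 32 were called higher or lower at an adjusted p of 0.05, and 0% of all genes tested were called. At an unadjusted p of 0.05 the count was 0 of 32, beside 178 of all genes (1.27%), and the smallest unadjusted p among the 32 was 0.212, for Echs1. DESeq2, limma-voom and limma-trend also called 0 of 32. The 4 antimiR-195 libraries overlapped the 4 hydrogel libraries for every one of the 32 genes, whereas 1.07% of all genes tested had groups that did not overlap.

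The differences were near their standard errors or smaller, and every 95% confidence interval included 0. Log2 fold changes (antimiR-195 over hydrogel) ran from -0.20 for Hadh to 0.14 for Acot2, with a median of -0.06 beside 0.01 over all genes tested and a median standard error of 0.14. For 29 of the 32 genes the 95% confidence interval lay within a 1.5-fold change in either direction, the exceptions being Acsl1, Cpt1b and Ucp3, and for all but Cpt1b it lay within 2-fold. Log2 fold changes were below 0 for 24 of the 32 genes (75%), beside 47.6% of all genes tested and 51.8% of the 4546 genes whose mean log2 CPM was 5 or more. That count moved with single libraries: 8 genes were above 0 with all libraries, but 1 when hydrogel replicate 4 was left out, 4 when antimiR-195 replicate 1 was and 13 when antimiR-195 replicate 2 was. The median over the 32 genes was -0.13, -0.10 and -0.05 in those same 3 fits and -0.01 without hydrogel replicate 2 or 3. The 9 genes with a miR-195 site had a median log2 fold change of -0.04, with 2 of 9 above 0 (Hadhb and Ucp3), and the genes without a site had a median of -0.07. Because whole ventricle was sequenced, fewer cells of a type and less RNA per cell cannot be told apart in any of these values.

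**Figure D1:**
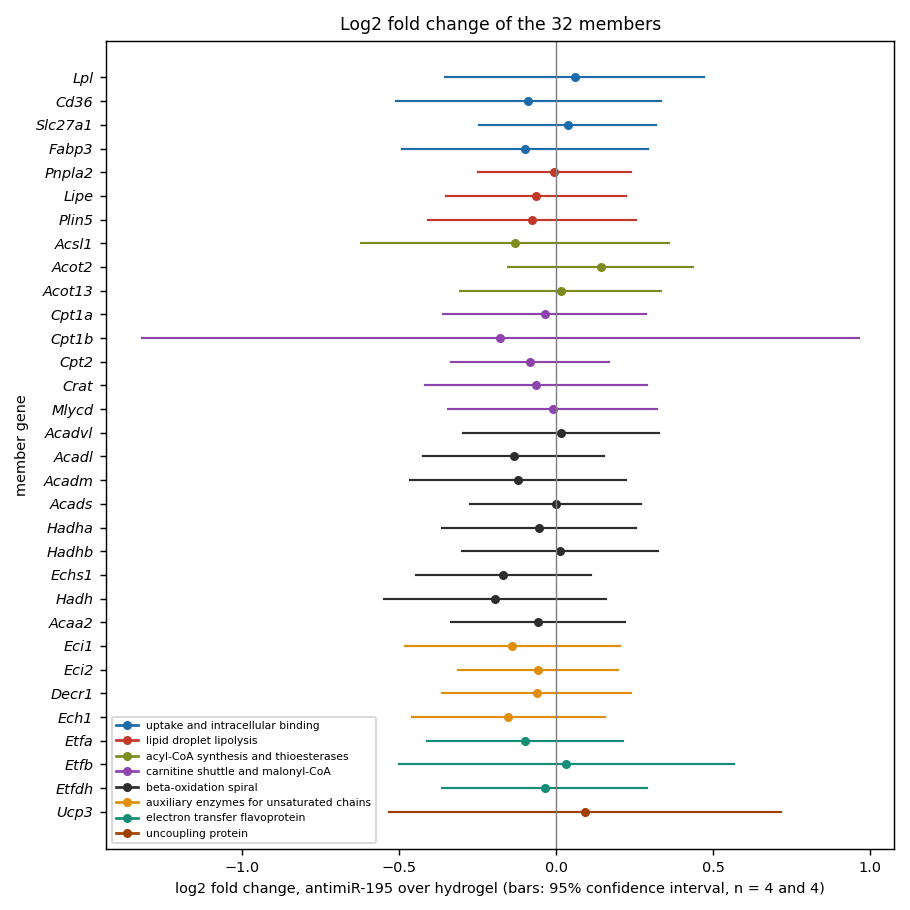
Log2 fold change of each of the 32 genes, antimiR-195 over hydrogel, from edgeR (x axis), with genes on the y axis coloured by role. Points are fitted values and bars are 95% confidence intervals (n = 4 and 4). Every bar crosses 0, and the bar of Cpt1b, from -1.32 to 0.96, is the widest.

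Levels are given below as CPM (read counts scaled to the size of the library, here with edgeR's TMM factors), each as replicates 1 to 4 of the hydrogel group and then of the antimiR-195 group, for the member of each role with the highest level per length, for the one with the smallest p and for the 3 largest fold changes. The 4 uptake and binding genes had log2 fold changes on both sides of 0, with 2 above and 2 below and a median of -0.03. Fabp3, heart-type fatty acid-binding protein, was at 1147, 1001, 1274 and 814 CPM in the hydrogel libraries and at 1082, 1116, 745 and 1010 CPM in the antimiR-195 libraries. The highest value was in hydrogel replicate 3 and the lowest in antimiR-195 replicate 3, and the means of 1059 ± 198 and 988 ± 168 CPM (SD, n = 4 each) differed by a log2 fold change of -0.10 ± 0.18 (SE). Lpl, the lipase bound to the capillary wall, ranged from 4519 CPM in hydrogel replicate 4 to 7765 CPM in antimiR-195 replicate 2, with a log2 fold change of 0.06 ± 0.19. Cd36, the membrane fatty acid receptor, lay between 1279 and 1626 CPM in 7 libraries and at 813 CPM in antimiR-195 replicate 2. Its log2 fold change was -0.09 ± 0.19 with all libraries and 0.07 without that library. Slc27a1, a fatty acid transport protein, had a log2 fold change of 0.04 ± 0.13.

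The 3 lipid droplet genes all had log2 fold changes just below 0, with a median of -0.06 and standard errors of 0.11 to 0.15. Pnpla2, adipose triglyceride lipase, which starts the breakdown of stored triglyceride, was the steadiest of the 32 genes. It was at 315.5, 283.9, 287.2 and 265.3 CPM in the hydrogel libraries and at 292.5, 271.7, 273.4 and 309.3 CPM in the antimiR-195 libraries. Its highest library exceeded its lowest by 1.19-fold, and its group means were 288 ± 20.7 and 287 ± 17.8 CPM. Plin5, a perilipin that coats lipid droplets in oxidative tissues, was at 90.4, 125.9, 99.67 and 81.57 CPM against 106, 100.3, 88.67 and 82.23 CPM. Both its extremes were hydrogel libraries, replicate 2 being high and replicate 4 low (log2 fold change -0.08 ± 0.15). Lipe, hormone-sensitive lipase, had a log2 fold change of -0.06 ± 0.13.

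Of the genes that make or split acyl-CoA, Acot2 had the largest positive log2 fold change of the 32 genes and Acsl1 one of the widest errors. Acot2, a mitochondrial acyl-CoA thioesterase, was at 49.56, 49.44, 44.04 and 37.65 CPM in the hydrogel libraries and at 55.47, 45.25, 43.05 and 55.59 CPM in the antimiR-195 libraries. The antimiR-195 replicates 1 and 4 lay above every hydrogel library while replicates 2 and 3 lay among them, so the log2 fold change of 0.14 ± 0.13 was near its own error (unadjusted p = 0.311 and adjusted p = 0.9999, edgeR). In the annotation, 27.7% of the 50-base windows of the Acot2 mRNA also occur in other genes, chiefly its neighbour Acot1. Reads placed there as well would not have been counted. Acot13, a small thioesterase, was at 329, 317.3, 386.9 and 283.9 CPM against 330.9, 401.3, 284.6 and 313.3 CPM, with nearly equal ranges in both groups (log2 fold change 0.01 ± 0.14). Acsl1, the main long-chain acyl-CoA synthetase of the heart, lay between 578.6 and 744.4 CPM in 7 libraries and at 325.9 CPM in antimiR-195 replicate 2. Its log2 fold change was -0.13 ± 0.22 with that library and 0.06 without it.

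The 5 genes of the carnitine shuttle and its control by malonyl-CoA all had log2 fold changes below 0 (median -0.07), none beyond its error. Cpt2, the inner-membrane carnitine palmitoyltransferase, was at 233.6, 259.2, 274.2 and 223 CPM in the hydrogel libraries and at 239.4, 217.1, 228.7 and 249.7 CPM in the antimiR-195 libraries. Means of 248 ± 23.4 and 234 ± 14.0 CPM gave a log2 fold change of -0.08 ± 0.11. Cpt1a, the liver-type outer-membrane enzyme, had a log2 fold change of -0.04 ± 0.15, Crat, carnitine acetyltransferase, -0.07 ± 0.16, and Mlycd, which breaks down the Cpt1 inhibitor malonyl-CoA, -0.01 ± 0.15. Crat was lowest in antimiR-195 replicate 2, at 303 CPM, and lay between 420.5 and 493.5 CPM in the other libraries.

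Cpt1b, the muscle form of the outer-membrane carnitine palmitoyltransferase and the main form of the adult heart, had almost no counts: 25, 65, 49 and 31 reads in the hydrogel libraries and 29, 5, 48 and 49 reads in the antimiR-195 libraries. These correspond to 1.32, 3.18, 2.26 and 1.72 CPM against 1.62, 0.273, 2.87 and 2.79 CPM, antimiR-195 replicate 2 being the lowest. The gene lies on chromosome 15, minus strand, at chr15:89416405-89425863 (GRCm38), beside Chkb. In GENCODE M21 a read-through gene, Gm44502, lies on the same strand and covers 2744 of the 3372 exon bases of Cpt1b (81.4%), leaving 628 bases outside it. Gm44502 is not an identifier of the count table. The gene length by which the authors' RPKM of Chkb was divided was 5805 bases, and the M21 exons of Chkb (3061 bases) and Gm44502 (4296 bases) together cover 5805 bases. These lengths match, but the table's annotation release and counting mode were not given in the sources used here. Reads set aside at this locus were not measured, so whether the counts reflect the abundance of Cpt1b was not tested. As counted, Cpt1b had a log2 fold change of -0.18 ± 0.52. Leaving out antimiR-195 replicate 2 gave 0.18, leaving out hydrogel replicate 2 gave 0.08 and leaving out antimiR-195 replicate 3 gave -0.45. Chkb itself, as counted, was at 51.6 ± 5.61 CPM with gel alone and at 47.7 ± 5.71 CPM with the drug.

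The 9 genes of the β-oxidation spiral included both largest negative log2 fold changes outside the Cpt1b locus, Hadh and Echs1, and 7 of the 9 lay below 0 (median -0.06). Acadl, long-chain acyl-CoA dehydrogenase, was at 1144, 1083, 1260 and 924.5 CPM in the hydrogel libraries and at 1069, 940.6, 980.9 and 1026 CPM in the antimiR-195 libraries. All 4 antimiR-195 values lay above hydrogel replicate 4 and below the other hydrogel replicates (log2 fold change -0.14 ± 0.13). The other dehydrogenases, each for another chain length, had log2 fold changes of 0.02 ± 0.14 for Acadvl, -0.12 ± 0.16 for Acadm and -0.00 ± 0.12 for Acads. Echs1, the short-chain enoyl-CoA hydratase, was at 348.5, 316.9, 397.8 and 288.9 CPM against 304.1, 283.6, 296.9 and 319.1 CPM. The lowest value was in antimiR-195 replicate 2, but hydrogel replicate 4 lay below 3 of the 4 antimiR-195 libraries. Its means of 338 ± 46.7 and 301 ± 14.8 CPM gave a log2 fold change of -0.17 ± 0.13 (unadjusted p = 0.212 and adjusted p = 0.9999, edgeR).

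Hadh, the short-chain 3-hydroxyacyl-CoA dehydrogenase, was at 575.7, 650, 688 and 521.4 CPM in the hydrogel libraries and at 602.2, 393.9, 551.5 and 579.7 CPM in the antimiR-195 libraries. The low antimiR-195 mean, 532 ± 94.3 against 609 ± 74.6 CPM, rested largely on replicate 2, without which the log2 fold change went from -0.20 to -0.09. Hadha and Hadhb encode the α and β subunits of the mitochondrial trifunctional protein, and their annotated genes lie head to head on chromosome 5, 86 bases apart. Their log2 fold changes were -0.05 ± 0.14 and 0.01 ± 0.14. Acaa2, the mitochondrial 3-ketoacyl-CoA thiolase that ends each turn of the spiral, had a log2 fold change of -0.06 ± 0.13.

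The 4 auxiliary enzymes, which move or reduce double bonds so that unsaturated chains can enter the spiral, all had log2 fold changes below 0 (median -0.10). Ech1, a dienoyl-CoA isomerase of mitochondria and peroxisomes, was at 1215, 1198, 1391 and 951.2 CPM in the hydrogel libraries and at 1107, 1092, 1007 and 1074 CPM in the antimiR-195 libraries. As for Acadl, the antimiR-195 values lay inside the hydrogel range. The means were 1189 ± 181 and 1070 ± 44.4 CPM (log2 fold change -0.15 ± 0.14). The enoyl-CoA isomerases Eci1 and Eci2 and the dienoyl-CoA reductase Decr1 had log2 fold changes of -0.14 ± 0.15, -0.06 ± 0.11 and -0.06 ± 0.14.

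The 3 electron transfer genes carry electrons from the acyl-CoA dehydrogenases to ubiquinone. Etfa, the α subunit of the electron transfer flavoprotein, was at 533.8, 512.8, 622.4 and 414.7 CPM against 512.8, 442.5, 473.9 and 517.5 CPM. Etfb, the β subunit, was at 638.3, 603.5, 792.2 and 467.5 CPM against 610.9, 967.9, 447.4 and 532.1 CPM. In antimiR-195 replicate 2 the subunits went opposite ways, Etfb being at its highest and Etfa near its lowest. The log2 fold change of Etfa was -0.10 ± 0.14, and that of Etfb was 0.03 ± 0.24 with all libraries and -0.25 without antimiR-195 replicate 2. Etfdh, the ubiquinone oxidoreductase, lay between 476.4 and 548.6 CPM in 7 libraries and at 359.7 CPM in antimiR-195 replicate 2 (log2 fold change -0.04 ± 0.15). In the annotation, 67.3% of the 50-base windows of the Etfb mRNA also lie in Gm45233, a same-strand gene that is not an identifier of the count table.

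Ucp3, a mitochondrial carrier of muscle induced by fatty acids, varied more between the hydrogel libraries than any other of the 32 genes. Its coefficient of variation (SD over mean) was 42.7% there. In the antimiR-195 group Ucp3, at 27.5%, came after Cpt1b (64.5%), Etfb (35.8%) and Acsl1 (30.7%). It was at 26.58, 51.4, 33.62 and 18.8 CPM in the hydrogel libraries and at 49.09, 28.69, 31.21 and 30.22 CPM in the antimiR-195 libraries. The highest and the lowest value were both in the hydrogel group, 2.73-fold apart. The log2 fold change was 0.09 ± 0.28 with all libraries, 0.40 when hydrogel replicate 2 was left out and -0.12 when antimiR-195 replicate 1 was.

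Levels per length differed widely between the genes. By the authors' RPKM (reads per kb of gene, scaled to the size of the library), Fabp3 was highest at 1270 ± 207 in the hydrogel group and 1215 ± 227 in the antimiR-195 group, followed by Lpl at 917 ± 177 and 980 ± 147. Etfb, Acadl, Ech1, Acaa2 and Acot13 came next, with mean RPKM from 556 down to 459, and in the hydrogel group neighbours in that order differed by less than the larger of their SDs. Of the 32 genes, 16 had a mean RPKM of at least 100. At the low end were Acot2 at 21.6, Ucp3 at 10.7, Cpt1a at 9.43 and Lipe at 9.33, and Cpt1b was listed at 0.589 RPKM. By CPM, Lpl alone gave 25.9 to 37.0% of the counts of the 32 genes, depending on the library.

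The order depended on the gene length used. Where GENCODE marks several principal transcripts of a gene, the median of their lengths was taken as the length of the principal mRNA. The lengths implied by the authors' counts and RPKM exceeded the principal GENCODE mRNA by more than 2-fold for 5 genes: 3.39-fold for Echs1, 3.22-fold for Hadhb, 2.85-fold for Etfdh, 2.78-fold for Hadh and 2.42-fold for Acsl1. Per kb of principal mRNA, Lpl (1570 reads per kb on the same scale) stood above Fabp3 (1243), and Ech1 (890) above Etfb (709). Hadhb, at 101 RPKM beside 202 for its partner subunit Hadha, stood at 325 per kb of principal mRNA beside 269, so the order of the trifunctional protein subunits turned. For Hadhb, 62.9% of the 50-base windows of the mRNA also lie in other genes, chiefly the processed pseudogenes Gm13910 and Gm9108, and reads placed there as well would not have been counted. Of the Fabp3 windows, 37.3% also lie in other genes, chiefly the processed pseudogene Fabp3-ps1, beside 4.11% of the Lpl windows. The part of this in the order of Lpl and Fabp3 was not tested. Acadvl shares 42.9% of its exon bases with Dvl2 on the opposite strand. The library kit keeps strand, but the strand setting of the counting is not given in the sources used here.

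**Figure D2:**
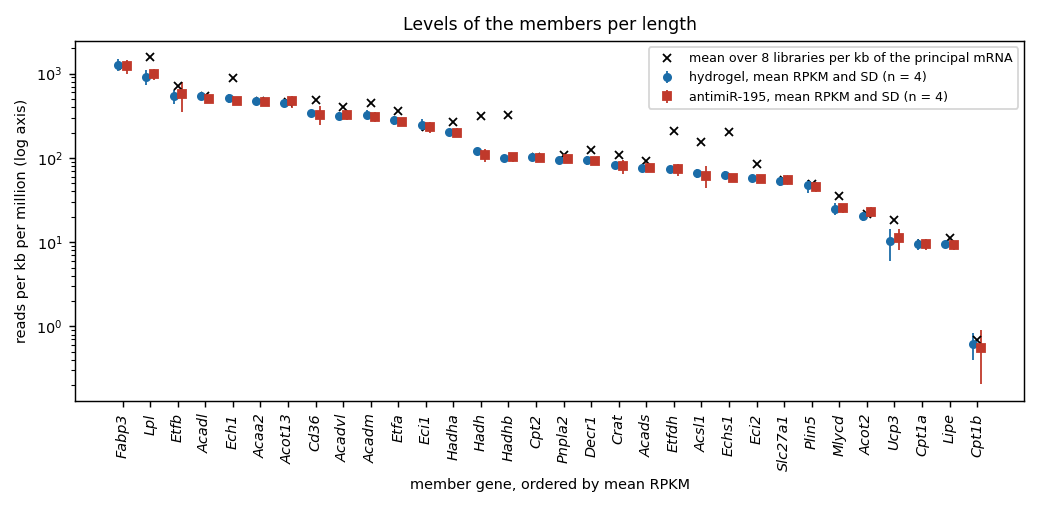
Mean level of each of the 32 genes per length (y axis, log scale) with genes on the x axis in order of mean RPKM. Circles and squares are the deposited RPKM in the hydrogel and antimiR-195 groups with SD (n = 4 each), and crosses are the mean over all libraries per kb of the principal mRNA. Fabp3 and Lpl stand at the top and Cpt1b at 0.589 RPKM at the bottom, and the crosses of Echs1, Hadhb, Etfdh, Hadh and Acsl1 lie well above their RPKM.

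The libraries differed from each other more than the groups did, and many of the 32 genes moved together in them. Hydrogel replicate 3 held the highest value of 15 of the 32 genes and hydrogel replicate 4 the lowest of 15, both within the same group. AntimiR-195 replicate 2 held the lowest value of 13 genes and the highest of 3. The median deviation of the 32 genes from their own means (log2) was 0.21 in hydrogel replicate 3, -0.20 in hydrogel replicate 4 and -0.14 in antimiR-195 replicate 2, and lay between -0.08 and 0.07 in the other 5 libraries. The 32 genes took 1.79% of all gene counts in hydrogel replicate 4 and 2.33% in hydrogel replicate 3, with group means of 2.11 ± 0.229% and 2.10 ± 0.114%. The median coefficient of variation was 13.1% in the hydrogel group and 12.3% in the antimiR-195 group, while for all genes of at least 5 log2 CPM it was 9.55% and 16.2%.

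**Figure D3:**
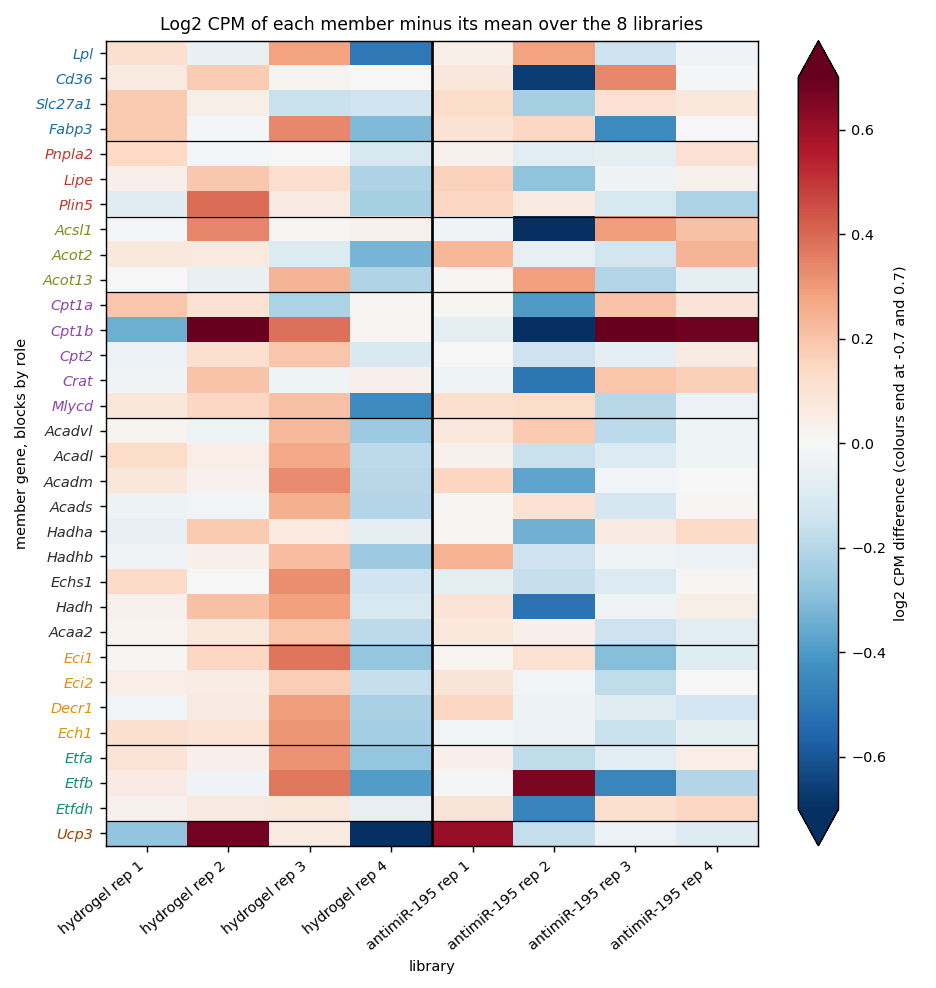
Log2 CPM of each of the 32 genes (rows, in blocks by role) minus its mean over the 8 libraries (columns, hydrogel to the left of the line), with colours ending at -0.7 and 0.7. Hydrogel replicate 3 is mostly above the mean and hydrogel replicate 4 mostly below it, and antimiR-195 replicate 2 holds both strong negative (Cpt1b, Acsl1, Cd36) and strong positive (Etfb) values.

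Summed levels of markers of the muscle and of other cell types also differed between these libraries. The summed level of 18 sarcomere and calcium-handling genes, which define cardiomyocytes, was lowest in hydrogel replicate 4 and highest in hydrogel replicate 3 (92849 and 112964 CPM), the same libraries in which the 32 genes were low and high. The summed level of 10 fibroblast and matrix genes was 9773 CPM in hydrogel replicate 4 and 5322 CPM in hydrogel replicate 3, and that of 10 macrophage and monocyte genes was 1977 and 1438 CPM. As sums, the 32 genes and the sarcomere list were thus lower in hydrogel replicate 4 than in hydrogel replicate 3. The matrix and macrophage sums were higher there. Single genes were divided: Ttn, Ryr2, Mybpc3, Casq2, Cacna1c and Slc8a1 were higher in hydrogel replicate 4, and the other sarcomere genes lower. Dcn and Tcf21 of the matrix list and Cd14 of the macrophage list were also lower there. Hydrogel replicate 4 held the lowest value of 2 of the 18 sarcomere genes, and hydrogel replicate 3 the highest of 3. AntimiR-195 replicate 2 had the highest matrix sum, 10388 CPM, and a macrophage sum of 1970 CPM, and its sarcomere list was divided. Of the 18 genes, 6 (Tnnt2, Tnni3, Tnnc1, Actc1, Myl2 and Myl3) were at their highest there and 9 (among them Myh6, Ttn, Ryr2 and Atp2a2) at their lowest. The sum of 112792 CPM was therefore the second highest of the libraries, while the list's mean log2 CPM was the lowest at 11.36, below 11.39 in hydrogel replicate 4 and 11.54 in hydrogel replicate 3. With that mean as a covariate in the edgeR fit, 0 of 32 genes were called, 10 lay above 0 and the median log2 fold change was -0.05. The part of the matrix and macrophage markers in the members' values was not tested. Between groups the sums overlapped: 92849 to 112964 against 96820 to 112792 CPM for sarcomere genes, 5322 to 9773 against 7513 to 10388 CPM for matrix genes, and 1438 to 1977 against 1232 to 1970 CPM for macrophage genes. Neutrophil genes (6) summed to 31.4 to 37.4 against 28.3 to 79.1 CPM, the highest in antimiR-195 replicate 2, and endothelial genes (8) to 746 to 913 against 745 to 895 CPM.

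Markers of fat and of fast skeletal muscle, tissues that also express many of the 32 genes, were mostly at low levels. The 8 adipocyte markers summed to 2.22 to 3.99 CPM with gel alone and 1.14 to 4.97 CPM with the drug, and the defining marker Adipoq had 3 to 17 reads per library and Plin1 1 to 4. The 4 brown adipocyte genes summed to 36.3 to 49.1 CPM with gel alone and 37.1 to 43.1 CPM with the drug. Nearly all of this came from Cidea (26.0 ± 4.69 and 26.7 ± 3.64 CPM) and Prdm16 (15.5 ± 1.63 and 13.8 ± 3.86 CPM), while Ucp1, which defines brown fat, and Elovl3 had 0 or 1 read per library. The 8 fast skeletal muscle genes summed to 6.96 to 9.32 and 5.44 to 17.0 CPM, with the highest sum in antimiR-195 replicate 2. Of the 72 genes of these 8 marker lists 58 could be tested, with 1 of 8 for adipocytes, 2 of 4 for brown adipocytes and 3 of 8 for fast skeletal muscle. None of the 58 was called by edgeR, and Ccr2, a monocyte receptor, alone had an unadjusted p under 0.05 (36.7 ± 5.86 against 29.3 ± 2.36 CPM, unadjusted p = 0.0338). Median log2 fold changes were 0.02 for the sarcomere list, 0.14 for matrix genes, -0.12 for macrophage genes, 0.31 for neutrophil genes and -0.04 for endothelial genes.

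**Figure D4:**
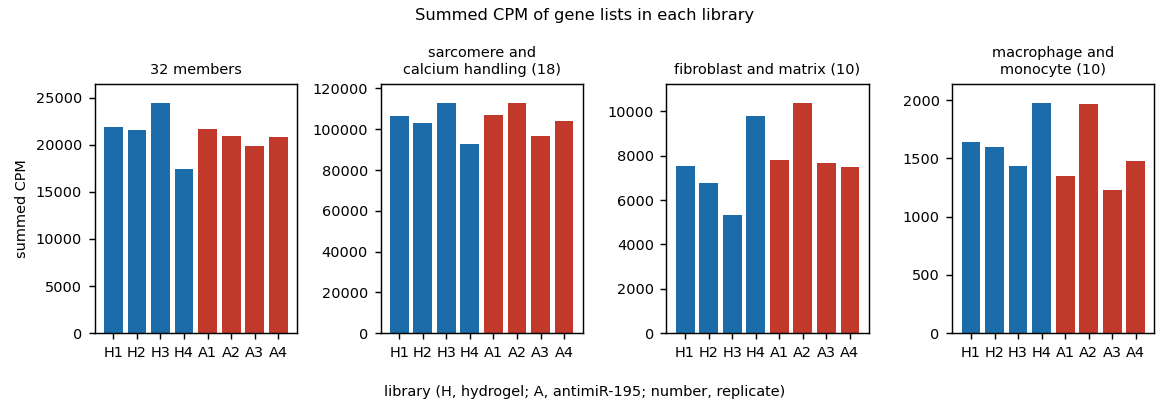
Summed CPM (y axes from 0) of the 32 genes and of 3 marker lists in each library (x axis; H, hydrogel; A, antimiR-195; the number is the replicate). H3 is highest and H4 lowest for the 32 genes and for the sarcomere list, and H4 and A2 are highest for the matrix and macrophage lists.

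Within libraries, the deviations of the 32 genes were ordered by the length of their mRNA. Across the 32 genes, Spearman's rho between the deviation and principal mRNA length was -0.56 in hydrogel replicate 3, -0.51 in antimiR-195 replicate 2, 0.68 in antimiR-195 replicate 3, 0.54 in antimiR-195 replicate 4, 0.47 in hydrogel replicate 4 and 0.32 in hydrogel replicate 2. In hydrogel replicate 1 and antimiR-195 replicate 1 it was -0.10 and 0.01. These are descriptions across genes, which share their libraries and are not independent replicates, and since deviations sum to 0 over libraries a negative trend in one library goes with positive ones in others. The 6 genes of under 1500 bases had a median deviation of 0.13 in antimiR-195 replicate 2 and -0.25 in antimiR-195 replicate 3, and the 11 genes of at least 2500 bases had -0.34 and 0.10. Of those 11 long genes, 10 lay below their mean in antimiR-195 replicate 2, Lpl being the exception at 0.28. The length classes were chosen after the values were seen. Both signs of the trend occurred in each group, and its part in the members' values was not tested. AntimiR-195 replicate 2 also had the largest share of alignment records not placed uniquely, 47.8% beside 42.1 to 44.5% in the other libraries.

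**Figure D5:**
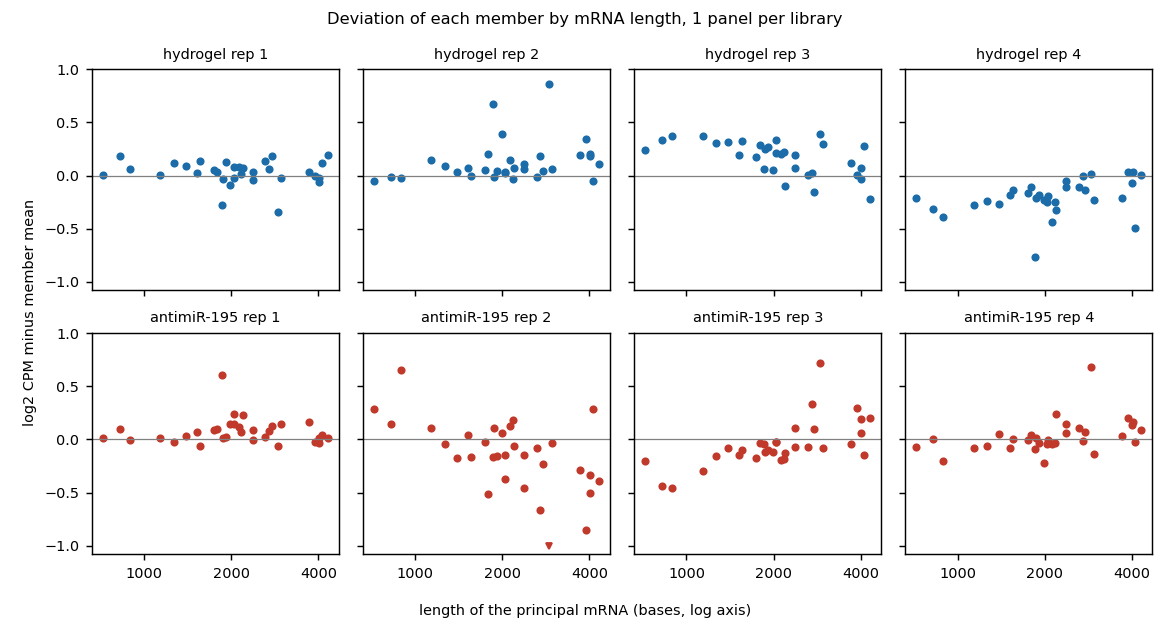
Deviation of each of the 32 genes from its mean log2 CPM (y axis) against the length of its principal mRNA in bases (x axis, log scale), in 1 panel per library; the triangle in antimiR-195 replicate 2 is Cpt1b, at -2.25 and drawn at the lower edge. Points slope down in hydrogel replicate 3 and antimiR-195 replicate 2 and up in antimiR-195 replicates 3 and 4.

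No other gene of the pathway was called either. Of 66 further genes of fatty acid uptake, oxidation, peroxisomal oxidation, ketone metabolism and lipid droplets, 63 could be tested: 23 had a log2 fold change above 0 and 40 below, with a median of -0.07, and 0 were called by edgeR at an adjusted p of 0.05 or reached an unadjusted p of 0.05. The 3 with the smallest p were Abhd5, the coactivator of adipose triglyceride lipase (log2 fold change -0.22 ± 0.11), Prkag2, a subunit of AMP-activated kinase (-0.20 ± 0.10), and the acyl-CoA synthetase Acsl4 (0.24 ± 0.13). Abhd5 was at 57.9 ± 5.09 CPM with gel alone and at 49.7 ± 3.46 CPM with the drug (unadjusted p = 0.0637 and adjusted p = 0.9999, edgeR). The groups did not overlap for 2 of the 63, Prkag2 (37.1 ± 2.20 against 32.4 ± 2.03 CPM) and the lipid droplet protein Plin3 (167 ± 2.45 against 153 ± 5.40 CPM), beside 1.07% of all genes. The 5 highest per length were Fabp4 at 1145 RPKM, Oxct1 at 311, Acat1 at 149, Dgat2 at 124 and Dbi at 118.

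Regulators of the pathway were likewise uncalled. Of 14 nuclear receptors and coactivators, all tested, 4 had a log2 fold change above 0 and 10 below, with a median of -0.10, and 0 were called by edgeR or reached an unadjusted p of 0.05. The 3 with the smallest p were the retinoid receptor Rxrg (63.0 ± 10.3 against 55.3 ± 2.93 CPM, log2 fold change -0.19 ± 0.13), the transcription factor Klf15 (42.6 ± 5.95 against 35.4 ± 12.3 CPM, -0.27 ± 0.23) and the oestrogen-related receptor Esrra (107 ± 16.7 against 97.8 ± 9.39 CPM, -0.14 ± 0.13). Promoters of 300 bases (RefSeq, GRCm38.p6, both strands) were found for 26 of the 32 genes. The PPAR element AGGTCANAGGTCA occurred in 0 of the 26 and in 13 of all 27025 genes with such a promoter (0.0481%). The oestrogen-related receptor element TCAAGGTCA occurred in 0 of the 26 and in 126 of the 27025 genes (0.466%). Matches this rare would seldom be seen in any 26 genes, so the absence says only that these letters are not in these windows.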

How the data were processed

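Polyadenylated RNA from 8 left ventricle samples (4 per group) was made into libraries with a strand-keeping kit, per the labels' protocols. STAR, HTSeq and DESeq are named in the submitters' processing notes, with the build GRCm38. The counting mode, strand setting and annotation release were not given in the sources used here. Raw read counts per gene were deposited by the authors, with RPKM values in a separate table. The per-library counts and the count table did not differ in any cell, and counts divided by RPKM gave 1 length per gene within a relative spread of 1.78e-08. Total gene counts ran from 16872968 to 22751753 per library. Lines naming no gene were left out: reads outside genes were 6.38 to 7.55% and ambiguous reads 0.772 to 1.05% of uniquely aligned reads.

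Counts were tested with edgeR 4.0.16 (TMM, filterByExpr, quasi-likelihood, all 8 libraries, no covariate) in R 4.3.3, with Benjamini-Hochberg adjustment over 13972 genes and a threshold of 0.05. The code was tested on simulated data. The TMM factors ran from 0.953 to 1.04. Alternatives were other scalings, no filter, DESeq2 1.42.0, limma 3.58.1 (voom with quality weights; trend on log2 RPKM with a pseudocount of 0.1 or 1), the mean sarcomere level as a covariate and leaving out each library. Replicate numbers follow accession order. The members and all lists were chosen with earlier results of these data known. Values in every library are given, within each role, for the gene of highest RPKM and of smallest p, and for the 3 largest fold changes. For Lpl, Cd36, Acsl1, Crat and Etfdh only ranges and single libraries are given, added after the values were seen. Of the other pathway genes, the rule names the 5 of smallest p and of highest RPKM, and of the regulators the 3 of smallest p; some items the rules name are not reported here. Transcript sequences and positions came from GENCODE M21.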

Additional observations from a re-analysis of the deposited data

Results flagged for a closer look

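In 4 of the 64 gene-by-group sets of 4 libraries, 1 library stood apart from the other 3 by more than Dixon's 95% critical value, where chance gives about 1 in 20. Etfdh was at 359.7 CPM in antimiR-195 replicate 2, below 527.6 to 548.6 CPM in the other 3 antimiR-195 libraries. Slc27a1 was at 128.3 CPM in the same library, below 158.8 to 164.7 CPM. Acsl1 was at 744.4 CPM in hydrogel replicate 2, above 585.5 to 601 CPM. Ucp3 was at 49.09 CPM in antimiR-195 replicate 1, above 28.69 to 31.21 CPM.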

How the results depend on the processing

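The counts of called genes (0 of all genes and 0 of 32) were the same under the 16 alternatives, and unadjusted p fell below 0.05 for 104 to 428 of all genes. The median log2 fold change of the 32 genes ran from -0.07 to -0.01 in the 8 alternatives with all libraries and from -0.13 to -0.01 with 1 library left out. Of 512 single-gene values, 68 changed sign, none of them past a threshold, and the cause was not tested. Acot2, Cpt2, Acadl, Acadm, Echs1, Hadh, Acaa2, Eci1, Eci2, Ech1 and Etfa kept their sign under all 16. Acads 0.0013 changed sign with RLE size factors, and Acads 0.0012 with DESeq2. Those that did so with no normalization factor were Acads 0.032, Mlycd 0.024 and Pnpla2 0.021. On log2 RPKM they were Acads 0.033, Mlycd 0.032 and Pnpla2 0.022 with a pseudocount of 0.1, and Acads 0.033, Mlycd 0.030 and Pnpla2 0.022 with a pseudocount of 1. With the sarcomere covariate they were Acads 0.0097, Pnpla2 0.0028, Mlycd 0.0077 and Etfb -0.021. With limma-voom and quality weights they were Etfdh 0.079, Etfb -0.17, Hadha 0.051, Acads 0.011, Crat 0.057, Cpt1b 0.22, Cpt1a 0.018, Acot13 -0.048, Acsl1 0.039, Pnpla2 0.025 and Acadvl -0.014, and 13 of 32 genes lay above 0. Leaving out 1 library gave these ranges where the sign changed: Lpl -0.078 to 0.17, Cd36 -0.23 to 0.066, Slc27a1 -0.0088 to 0.10, Fabp3 -0.21 to 0.014, Pnpla2 -0.051 to 0.032, Lipe -0.14 to 0.0045, Plin5 -0.16 to 0.059, Acsl1 -0.26 to 0.056, Acot13 -0.099 to 0.10, Cpt1a -0.11 to 0.065, Cpt1b -0.45 to 0.18, Crat -0.14 to 0.057, Mlycd -0.14 to 0.057, Acadvl -0.065 to 0.099, Acads -0.071 to 0.090, Hadha -0.12 to 0.028, Hadhb -0.076 to 0.092, Decr1 -0.15 to 0.035, Etfb -0.25 to 0.17, Etfdh -0.099 to 0.079 and Ucp3 -0.12 to 0.40. No paired analysis was possible because the labels give no replicate numbers that link libraries of the groups. Read numbers were low for Cpt1b alone (5 to 65 per library), and the other 31 genes had at least 339 reads in every library.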
